A study of Mus musculus with 4 samples.

Results

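The ionotropic glutamate receptor genes followed here were Gria1, Gria2, Gria3, Gria4, Grin1, Grin2b, Grik1, Grik2, Grik3 and Grik5. They were taken by symbol from the gene list of the Illumina data and, on the Nanopore side, as every isoform filed under those symbols, which gave 10 of 27998 genes and 29 of 31947 isoforms. Brain cells (cortex, hippocampus and ventricular zone combined) of 1 C57BL/6 mouse embryo at E18 were captured in 1 droplet emulsion. That emulsion was split into aliquots of 190 and 951 cells, and each aliquot's cDNA was read by Illumina and by Nanopore. Illumina reads one end of the cDNA and counts unique molecular identifiers (UMIs, tags that mark single RNA molecules) per gene. Nanopore reads the whole cDNA and counts UMIs per annotated isoform. The paper states that no treatment was applied, and the labels name neither a treatment nor a genotype. Since both aliquots came from 1 animal and 1 emulsion, p-values below measure the technical spread between aliquots and not that between animals.

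Glutamate released by one neuron opens ion channels on the next, and each channel is built from several subunits. AMPA receptors (Gria genes) carry the fast current, NMDA receptors (Grin genes) let calcium in when the cell is already depolarised, and kainate receptors (Grik genes) tune transmitter release and excitability. Grin1 is the subunit that every NMDA receptor contains, and Grin2b is the glutamate-binding subunit typical of the embryonic brain. Gria2 decides whether an AMPA receptor passes calcium, and Grik5 is a high-affinity kainate subunit that needs a partner such as Grik2. In the embryonic cortex, progenitors divide near the ventricle, and their daughters become glutamatergic neurons, whereas GABAergic interneurons arrive from the ventral brain.

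Cells with at least 1400 Illumina genes were kept, 186 of 190 and 935 of 951. They held 1809081 and 8295650 Illumina UMIs and 993220 and 4889148 Nanopore UMIs. Over all genes, Nanopore returned 54.9% and 58.9% of the Illumina UMI number. The aliquots shared 13 cell barcodes, of which 12 were kept in both, so that 24 of 1121 cells carried a shared barcode. Haemoglobin-type erythroid UMIs were present in 96.8% of cells at 469.7 to 789.7 CPM in every class, where CPM is the number of UMIs of a gene per 1000000 UMIs of the library or class.

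The genes lie on 10 chromosomes in the GRCm38 annotation. The AMPA genes are Gria1 (ENSMUSG00000020524, chr11:57011387-57330244, plus strand), Gria2 (ENSMUSG00000033981, chr3:80681450-80802835, minus strand), Gria3 (ENSMUSG00000001986, chrX:41400854-41678601, plus strand) and Gria4 (ENSMUSG00000025892, chr9:4417896-4796234, minus strand). The NMDA genes are Grin1 (ENSMUSG00000026959, chr2:25291181-25319187, minus strand) and Grin2b (ENSMUSG00000030209, chr6:135713233-136173511, minus strand). The kainate genes are Grik1 (ENSMUSG00000022935, chr16:87895900-88290265, minus strand), Grik2 (ENSMUSG00000056073, chr10:49094833-49788766, minus strand), Grik3 (ENSMUSG00000001985, chr4:125490700-125714173, plus strand) and Grik5 (ENSMUSG00000003378, chr7:25009849-25072346, minus strand). Their longest coding transcripts ran from 3655 nt in Grik1 to 24060 nt in Grin2b, and 20716 nt of the latter were its last exon. Coding regions were more alike, from 2649 nt in Gria2 to 4446 nt in Grin2b.

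AMPA transcripts contain 1 of 2 neighbouring coding exons of 115 nt, called flop and flip, which give the channel different kinetics. The annotation does not carry these names, and here the exon nearer the 5′ end was taken as flop and the next as flip from background knowledge of these genes, so every flip share below rests on that assignment. The exon sequences of Gria1 and Gria2 are printed because the Nanopore isoforms of these genes differ by them. Capitals mark the bases at which the flop and flip exons of the same gene differ. All are from the GENCODE transcripts of build GRCm38 and are written 5′ to 3′ on the gene's own strand. The Gria1 exons lie at chr11:57309769-57309883 (flop) and chr11:57310608-57310722 (flip), both on the plus strand. Those of Gria2 lie at chr3:80691320-80691434 (flop) and chr3:80690404-80690518 (flip), both on the minus strand.
Gria1 flop: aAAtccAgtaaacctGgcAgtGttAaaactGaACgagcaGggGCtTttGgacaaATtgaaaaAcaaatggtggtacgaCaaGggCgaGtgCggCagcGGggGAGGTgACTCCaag
Gria1 flip: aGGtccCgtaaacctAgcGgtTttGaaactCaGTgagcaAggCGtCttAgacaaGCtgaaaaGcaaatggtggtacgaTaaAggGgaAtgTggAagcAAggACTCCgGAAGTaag
Gria2 flop: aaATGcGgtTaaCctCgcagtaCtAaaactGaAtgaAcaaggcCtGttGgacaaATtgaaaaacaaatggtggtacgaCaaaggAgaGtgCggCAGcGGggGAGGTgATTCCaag
Gria2 flip: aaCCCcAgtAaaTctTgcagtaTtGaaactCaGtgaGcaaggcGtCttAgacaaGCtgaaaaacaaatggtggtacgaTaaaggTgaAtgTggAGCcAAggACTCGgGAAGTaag
In each of these genes 36 of 115 bases differed between flop and flip, an identity of 68.7%. Between Gria1 and Gria2 the flop exons were 87.8% identical and the flip exons 88.7%, so that each exon was closer to its counterpart in the other gene than to its neighbour. The exons of Gria3 and Gria4 differed at 32 and 31 bases.

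Capture of the receptor transcripts on both platforms was compared first, where Nanopore capture means UMIs matched to an annotated isoform. The 10 genes gave 7399 Illumina UMIs but 561 Nanopore UMIs, 7.58% of the Illumina number (95% exact binomial interval 6.99 to 8.21%), against 58.2% over all genes. At least 1 receptor UMI was found by Illumina in 1006 of 1121 cells (89.7%) and by Nanopore in 374. All intervals here cover counting error only.

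Gria2 was the most abundant receptor transcript on either platform. Illumina counted 732 and 2937 UMIs in the 190-cell and 951-cell aliquots, and Nanopore 79 and 317, which is 10.8% in both. Grin2b was second on Illumina with 438 and 2138 UMIs and nearly missing on Nanopore with 3 and 6. Its Nanopore number was 0.349% of the Illumina number (0.160 to 0.662%). Gria1 was kept best, with 72 and 300 Illumina and 17 and 78 Nanopore UMIs (25.5%, interval 21.2 to 30.3%).

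The rarer genes fell between these. Grik5 had 66 and 223 Illumina against 4 and 14 Nanopore UMIs (6.23%), and Gria4 had 33 and 99 against 2 and 7 (6.82%). Grin1 gave 17 and 82 against 1 and 6 UMIs (7.07%), and Grik2 gave 14 and 81 against 1 and 10 (11.6%). For these 4 genes every Nanopore library was below every Illumina library in CPM. Gria3 had 11 and 69 Illumina and 3 and 10 Nanopore UMIs (16.2%). Grik3 fell from 7 and 62 UMIs to 0 and 1, and Grik1 was rare throughout, with 2 and 16 Illumina UMIs and 1 in each Nanopore library. The margin was narrowest in Grik1, whose Nanopore level of 1.01 CPM in the small aliquot lay just below its Illumina level of 1.11 there.

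**Figure D1:**
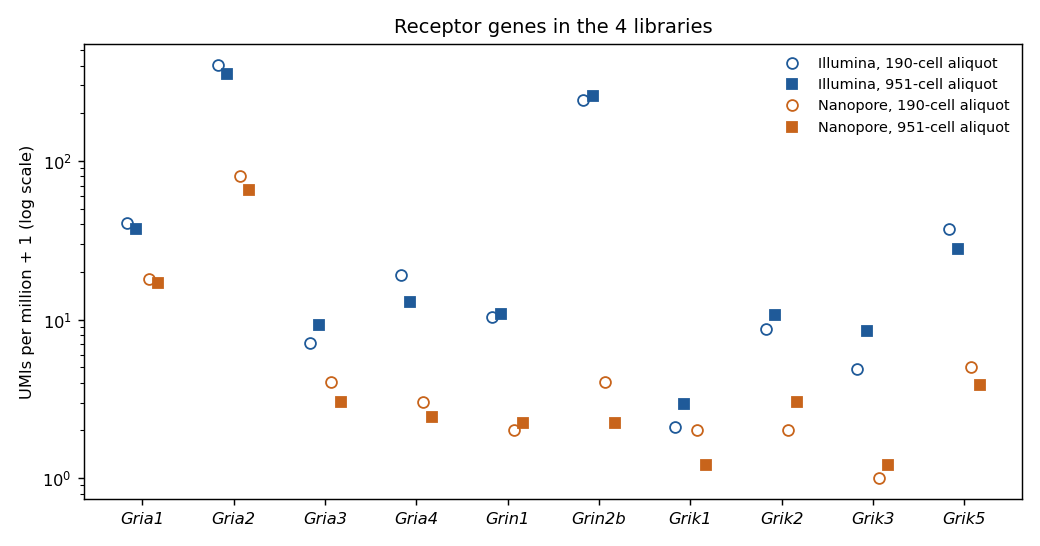
CPM (UMIs per 1000000 UMIs) of each receptor gene plus 1 (log scale) in the 4 libraries, blue for Illumina and orange for Nanopore, open circles for the 190-cell and filled squares for the 951-cell aliquot. Grin2b drops from above 240 to about 3.02 CPM or less, and Gria1 shows the smallest gap among the 9 tested genes.

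All 9 receptor genes that could be tested were lower on Nanopore relative to library size (quasi-likelihood test in edgeR, threshold of 0.05 for the p adjusted by Benjamini-Hochberg). Of 9855 tested genes 50.5% passed, 30.3% lower and 20.2% higher, and the median log2 difference of all genes was -0.04. Gria3, Gria4, Grin1, Grin2b, Grik2 and Grik3 had 10 UMIs or fewer in each Nanopore library and passed the low-count filter through the Illumina ones. They could come out lower or uncalled but hardly higher, so the absence of higher genes among them says little. Grik1 had too few UMIs for the test, and in CPM both Nanopore libraries were below both Illumina libraries for all 10 genes, as they were for 41.4% of 12556 genes with a UMI. The median log2 difference of the 9 receptor genes was -2.86. It was smallest in Gria1 (-1.07 ± 0.17, SE, adjusted p = 0.00379), followed by Gria3 (-1.60 ± 0.38, adjusted p = 0.0164). Gria2 stood at -2.29 ± 0.13 (adjusted p = 0.000137). The largest differences were those of Grik3 (-4.86 ± 0.80, adjusted p = 0.00466) and Grin2b (-7.16 ± 0.24, adjusted p = 4.9e-05). Grik2, Grin1, Gria4 and Grik5 lay between -2.14 and -3.15. With the DESeq2 Wald test, Gria3 (adjusted p = 0.277) and Grik2 (adjusted p = 0.0796) no longer passed, and both were also lost without the Illumina library of the 951-cell aliquot, when Grik3 could not be tested and 6 genes passed. Gria3 was also lost without the Nanopore library of that aliquot (adjusted p = 0.22 by edgeR's test). The Nanopore files hold only UMIs whose exon structure matched an annotated isoform. Cell barcodes and UMIs were assigned with the Illumina data as guide. From these files alone the loss at each of these steps cannot be told apart. For Gria2, the paper extracted far more UMIs from its Nanopore reads of both aliquots than the isoform counts hold. The paper also reports that Gria2 mRNA was poorly converted into full-length cDNA, and names RNA degradation and internal priming as likely reasons. The part of each step in the gap was not tested.

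Nanopore capture was then set against transcript length over 7305 genes with at least 20 Illumina UMIs in each aliquot, 5 of them receptor genes. The median capture per gene in the 951-cell aliquot was 80.9% for genes whose longest coding transcript was under 1 kb. It was 58.6% at 2 to 4 kb, 31.7% at 4 to 6 kb and 13.8% at 8 kb or more. In the 190-cell aliquot the same bins gave 75.6%, 53.8%, 30% and 12.6%. Within their bins, Gria1 and Gria2 were ordinary. In the 190-cell and 951-cell aliquots, 40.9% and 42.5% of the genes of 4 to 6 kb were captured less well than Gria1, and 44.2% and 41.8% of those of 8 kb or more less well than Gria2. Grik5, with 3763 nt, was low for its length, with 4.06% and 3.81% of genes below it. Grin2b was at the low end of the longest bin (10.8% and 1.62% of genes below it), and Gria4 was at 13.5% and 13.4% of its own. Capture against length is a description across genes, which share libraries and are not independent replicates.

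**Figure D2:**
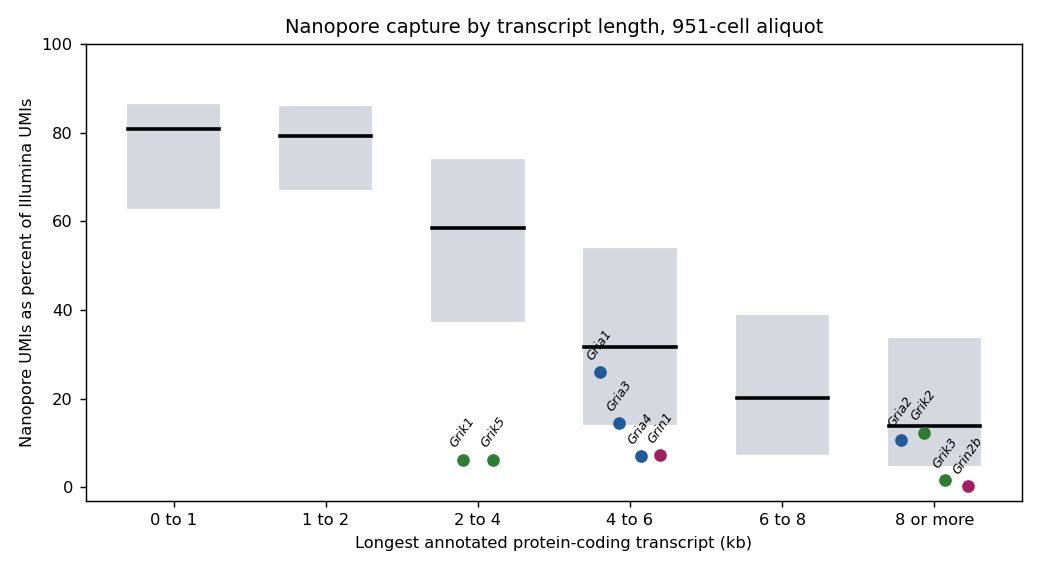
Nanopore UMIs as a percent of Illumina UMIs in the 951-cell aliquot (y axis) by length of the longest annotated coding transcript (x axis, kb), with grey boxes from the first to the third quartile of all genes of a bin, black lines at their medians and points for the receptor genes, blue for Gria, purple for Grin and green for Grik. Gria1 and Gria2 lie inside their boxes at 26.0% and 10.8%, and Grik5 lies far below its own at 6.28%.

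The Nanopore isoforms showed what the matched molecules were. Of 561 UMIs, 58.3% fell on protein-coding isoforms, 21.9% on retained-intron isoforms, 18.2% on isoforms annotated for nonsense-mediated decay and 1.60% on processed transcripts. An isoform was counted as full-length coding where it had a start and a stop codon and at least 80% of the gene's longest coding region. By that measure 317 of 561 UMIs (56.5%, interval 52.3 to 60.7%) were full-length coding.

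The share differed widely between genes. Both detected Gria1 isoforms were full-length coding (95 of 95 UMIs), and 17 of 18 Grik5 UMIs lay on the full-length isoform Grik5-201. Gria2 had 177 of 396 UMIs (44.7%) on full-length coding isoforms. The others were Gria2-203, annotated for nonsense-mediated decay, with 21 and 81 UMIs in the aliquots (25.8% of the gene), and the retained-intron isoforms Gria2-206 (56 UMIs), Gria2-207 (36 UMIs) and Gria2-205 (25 UMIs). Gria2-203 holds the flop and the flip exon together, and with them an exon of 41 nt at chr3:80691703-80691743. For Grin2b no UMI fell on a full-length coding isoform, where 2576 Illumina UMIs were counted, and a count of 0 allows up to 0.116% of that number. Its 9 UMIs were on Grin2b-207, a processed transcript of 241 nt (6 UMIs), Grin2b-204 (2 UMIs) and Grin2b-205 (1 UMI).

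The remaining genes had few molecules. Gria3 had 11 UMIs on Gria3-201 and 2 on the retained-intron isoform Gria3-207. Gria4 had 6 on the short coding isoform Gria4-203 of 2338 nt, which falls under the full-length limit, and 3 on Gria4-202. The 11 Grik2 UMIs comprised 7 on Grik2-207, at 9427 nt the longest receptor isoform seen apart from Gria2-201, 3 on the retained-intron isoform Grik2-203 and 1 on Grik2-209. The 7 Grin1 UMIs were spread over 6 isoforms: 2 lay on Grin1-211, and Grin1-201, Grin1-202, Grin1-203, Grin1-205 and Grin1-214 had 1 each. Grik1-201, Grik1-211, Grik3-201 and the retained-intron isoform Grik5-206 had 1 UMI each. No isoform choice can be read from these numbers.

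Flip exceeded flop in both Gria1 and Gria2. Gria1 had 77 UMIs on the flip isoform Gria1-201 and 18 on the flop isoform Gria1-202, a flip share of 81.1% (interval 71.7 to 88.4%). The aliquots gave 94.1% and 78.2%. Gria2 had 113 UMIs on the flip isoform Gria2-202 and 64 on the flop isoform Gria2-201, a flip share of 63.8% (56.3 to 70.9%), with 76.7% and 61.2% in the aliquots. Gria1 was higher than Gria2 in each aliquot, and this difference was not tested. In Gria2 the annotated flip isoform is 4026 nt long and the flop isoform 10371 nt, whereas those of Gria1 are 5546 and 5399 nt, and the part of length in the Gria2 share was not tested.

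Flip shares by class rested on few UMIs, and flip against flop was not tested between classes. For Gria2 they were 67.6% in immature glutamatergic-like cells (25 of 37 UMIs), 60.3% in mature glutamatergic-like cells (44 of 73) and 63.6% in mature GABAergic-like cells (7 of 11). Gria1 flip made up 82.8% in mature GABAergic-like cells (53 of 64) and 81.0% in mature glutamatergic-like cells (17 of 21). The intervals of the classes overlapped within each gene.

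**Figure D3:**
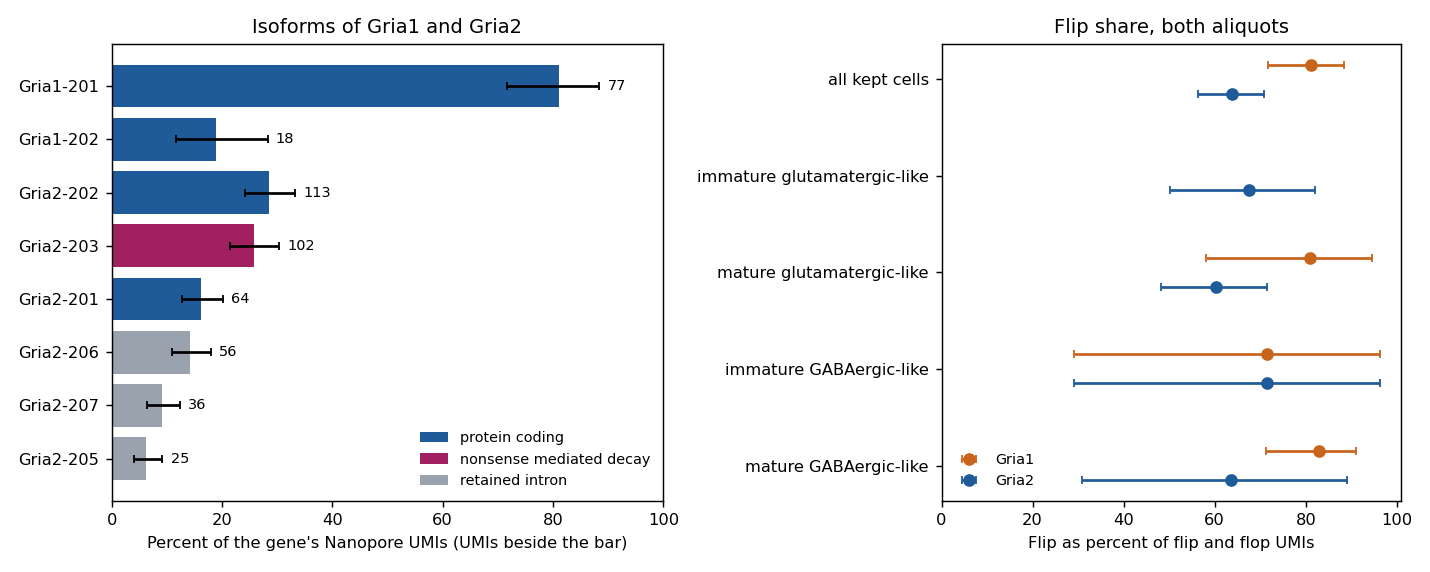
Left, percent of the Nanopore UMIs of Gria1 and Gria2 on each isoform with 95% exact binomial intervals, coloured by annotated type and with UMI numbers beside the bars. Right, flip UMIs as a percent of flip and flop UMIs with the same intervals for all kept cells and 4 classes, where Gria1 stands at 81.1% and Gria2 at 63.8% over all cells.

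Isoform usage between classes was tested on isoform UMIs summed per class and aliquot (edgeR's diffSpliceDGE, 664 genes). Gria2 was the only receptor gene with enough UMIs to be tested, with 2 isoforms, Gria2-202 and Gria2-203 being the ones compared. No receptor gene passed in any of 3 comparisons, and none had an unadjusted p under 0.05. For Gria2 the adjusted p was 0.241 for mature glutamatergic-like against radial glia-like, 0.891 for mature against immature glutamatergic-like and 0.949 for mature GABAergic-like against mature glutamatergic-like cells. Over all genes 16%, 1.51% and 1.51% passed. When low isoforms were not removed, 8 receptor genes could be tested and none passed, where 2.35%, 0.0133% and 0.106% of 7538 genes did. With such low shares over all genes, the absence of a call among 8 genes says little.

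Cell classes were built from clusters of the Illumina data made without the receptor genes and 61 partner genes, and named from marker genes. They were radial glia-like (66 cells), cycling-like (113), intermediate progenitor-like (85), immature glutamatergic-like (145), mature glutamatergic-like (280), immature GABAergic-like (175), mature GABAergic-like (142) and Cajal-Retzius-like (16). A cluster of 88 cells led by Hs6st2 kept no name, and 11 cells carried markers of other cell types. Marker support was uneven. A cluster of 141 cells led by Ndrg1 was named mature glutamatergic-like with 4 of 10 markers raised and a mean marker log2 difference of 0.222. The unnamed cluster had 5 of 8 immature glutamatergic markers raised and a mean of 0.444, but 0 of them among its 10 leading genes. For radial glia-like cells the mean was 3.76. Mature GABAergic-like cells were shallow, with a median of 5817 and 4848 UMIs in the aliquots against 13128 and 11241 in mature glutamatergic-like cells. In the summed data, fewer transcripts per cell and fewer expressing cells cannot be told apart. The microglia-marked and mesenchymal-marked cells, which should lack these receptors, held 0 receptor UMIs among 52993, which allows up to 56.6 CPM.

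Each receptor gene had its own order of classes. Gria1 stood at 315 CPM in mature GABAergic-like cells, with 518 and 283 in the aliquots. It was at 28.6 in mature glutamatergic-like cells (20.3 and 30.3) and at 27.7 in immature GABAergic-like cells (40.9 and 24.97). Immature glutamatergic-like cells had 3.82, radial glia-like cells 1.98 and cycling-like cells 1.59. Both mature GABAergic-like sums were above every other sum, and mature glutamatergic-like and immature GABAergic-like cells overlapped. Gria1 was also among the 10 genes that led the mature GABAergic-like cluster, although the clusters were made without it.

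Gria2 was highest in the unnamed cluster (849 CPM) and in immature glutamatergic-like cells (776, with 983 and 738 in the aliquots). Mature glutamatergic-like cells followed at 441 (492 and 431). Intermediate progenitor-like cells had 236 (321 and 214), mature GABAergic-like cells 216 (114 and 232) and immature GABAergic-like cells 181 (140 and 189). Mature GABAergic-like cells overlapped with the 2 classes beside them. Cycling-like cells stood at 102 and radial glia-like cells at 65.5.

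Grin2b was highest in mature glutamatergic-like cells at 519 CPM (500 and 522). Mature GABAergic-like cells had 329 (394 and 319), immature glutamatergic-like cells 189 (229 and 182) and immature GABAergic-like cells 126 (111 and 130). These 4 classes did not overlap in their sums. Radial glia-like (65.5), intermediate progenitor-like (44.9) and cycling-like cells (44.5) were lowest.

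The rarer genes peaked in different classes. Gria4 was at 65.0 CPM in mature GABAergic-like cells (93.3 and 60.5) and at 17.2 in mature glutamatergic-like cells. Gria3 was highest in immature glutamatergic-like cells at 24.8 (24.7 and 24.9), with 8.93 or less in the mature glutamatergic-like and GABAergic-like classes. Grin1 was at 22.6 in mature GABAergic-like and 14.2 in mature glutamatergic-like cells, and had 1 UMI in radial glia-like cells. Its level in Cajal-Retzius-like cells was higher than in these classes, on 8 UMIs.

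Among the kainate genes, Grik3 was highest in immature GABAergic-like cells (24.7, interval 16.0 to 36.5) and mature GABAergic-like cells (19.8), whose intervals overlapped. Grik2 stood at 25.4 in mature GABAergic-like and 17.9 in radial glia-like cells. Of its 18 UMIs in mature GABAergic-like cells, 0 came from the small aliquot. Grik5 ranged from 17.5 in cycling-like to 38.2 in immature glutamatergic-like cells, a difference that was not tested. Of 18 Grik1 UMIs, 12 lay in mature GABAergic-like cells (1 and 11) and 0 in mature glutamatergic-like cells. The level of 16.9 was 18.3-fold that of the latter taken at a floor of 3 UMIs over both aliquots. This ratio leaves out the counting error of the 12 UMIs.

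**Figure D4:**
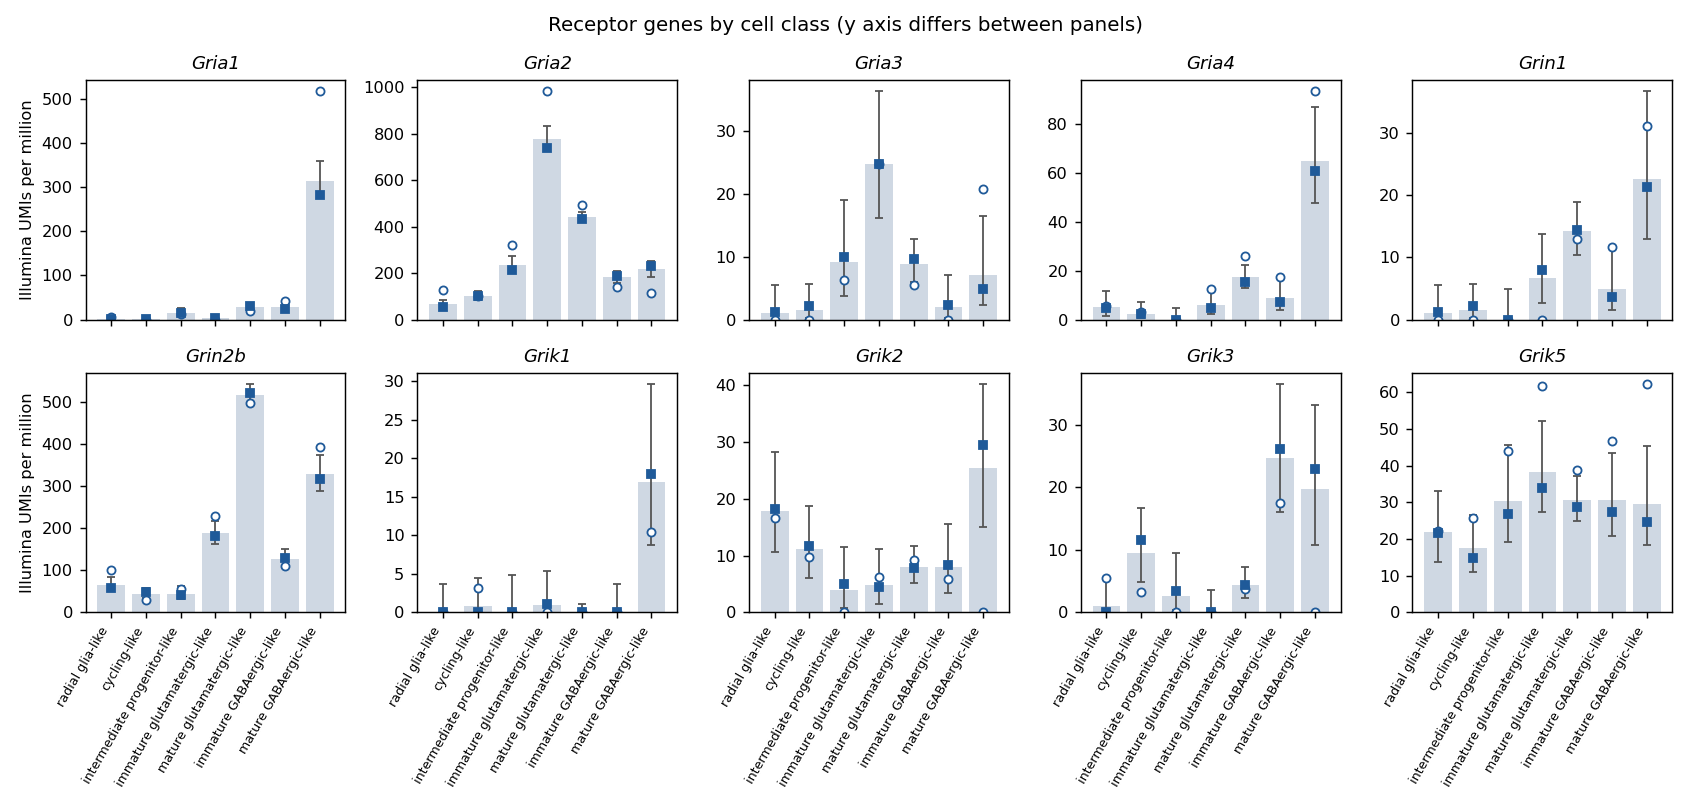
Illumina CPM (UMIs per 1000000 UMIs) of the 10 receptor genes in 7 classes, with bars for both aliquots pooled, whiskers for exact 95% Poisson intervals, open circles for the 190-cell and filled squares for the 951-cell aliquot, and a separate y axis per gene. Gria1 and Gria4 peak in mature GABAergic-like cells at 315 and 65.0, Gria2 in immature glutamatergic-like cells at 776 and Grin2b in mature glutamatergic-like cells at 519.

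Shares of cells with a UMI were compared after each cell was thinned to 2000 UMIs. Gria1 was found in 45.1% of mature GABAergic-like cells and 4.29% of mature glutamatergic-like cells (66.9% and 18.9% before thinning). Gria2 was found in 70.3% of immature glutamatergic-like, 52.5% of mature glutamatergic-like and 35.2% of mature GABAergic-like cells (95.2%, 95.0% and 64.1% before). For Grin2b the thinned shares were 64.6% in mature glutamatergic-like, 44.4% in mature GABAergic-like and 15.2% in radial glia-like cells (94.6%, 69.0% and 50% before). The thinned shares did not follow the CPM everywhere. For Grin2b immature GABAergic-like cells had 13.7%, below radial glia-like cells, and for Gria2 intermediate progenitor-like cells had 34.1%, below mature GABAergic-like cells, although their CPM were higher, so no order is read for these pairs. In radial glia-like cells Gria1 had 0 thinned UMIs, and none of the microglia-marked or mesenchymal-marked cells held any.

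The subunit make-up of the AMPA UMIs set mature GABAergic-like cells apart. Illumina UMIs were not scaled by transcript length, and whether the 4 transcripts are captured equally well was not tested, so these are shares of UMIs. In mature GABAergic-like cells, Gria1 made up 52.2% of AMPA UMIs (interval 47.4 to 57.0%, 69.4% and 48.7% in the aliquots), Gria2 35.8% (15.3% and 40%) and Gria4 10.8% (12.5% and 10.4%). In mature glutamatergic-like cells Gria1 made up 5.78% (4.69 to 7.03%) and Gria2 88.9%. Gria2 was 75.8% or more in every other class, up to 98.0% in the unnamed cluster. Of 95 mature GABAergic-like cells with a Gria1 UMI, 28 had no Gria2 UMI (29.5%). In mature glutamatergic-like cells it was 5 of 53 (9.43%), with the deeper cells named above, and the part of depth was not tested. Immature GABAergic-like cells had 5 of 22 (22.7%), intermediate progenitor-like cells 4 of 10 (40%) and all kept cells 44 of 196 (22.4%). The share of Gria1 cells without a Gria2 UMI therefore did not set mature GABAergic-like cells apart.

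**Figure D5:**
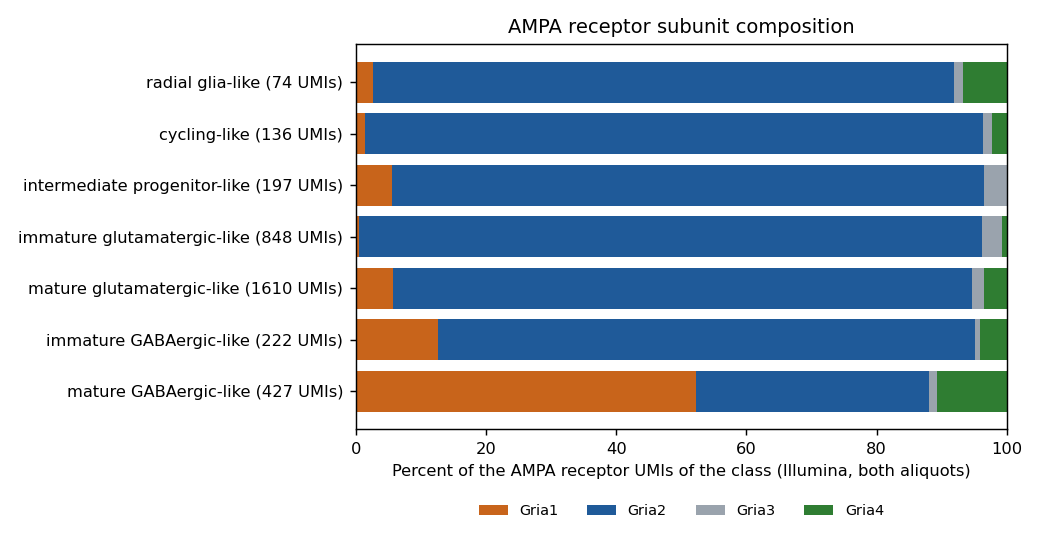
Percent of the AMPA receptor UMIs of each class that came from Gria1, Gria2, Gria3 and Gria4 (x axis, Illumina, both aliquots summed), with the number of AMPA UMIs beside the class. Gria1 takes 52.2% in mature GABAergic-like cells and 12.6% or less in the other 6 classes.

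NMDA and kainate UMIs were shared out differently, and these too are shares of UMIs. Whether Grin1 and Grin2b transcripts, with longest last exons of 1304 and 20716 nt, are captured equally well was not tested. The same holds for the kainate transcripts. Grin2b made up 96.3% of the Grin1 and Grin2b UMIs over all cells, and 93.6% or more in the 7 tested classes. It was 91.9% in the unnamed cluster and 66.7% in Cajal-Retzius-like cells (16 of 24 UMIs). Grik5 made up 61.4% of kainate UMIs over all cells, with 87.0% in immature glutamatergic-like and 32.3% in mature GABAergic-like cells. The latter share was 85.7% in the 190-cell aliquot (6 of 7 UMIs) and 25.9% in the 951-cell aliquot, so that the low value rests on the larger aliquot. Kainate genes were 22.5% of all receptor UMIs in radial glia-like cells and 3.995% in mature glutamatergic-like cells. Their summed level was alike in these classes, at 40.7 and 42.8 CPM. The AMPA genes stood at 73.4 and 496 CPM there, and the NMDA genes at 66.5 and 533.

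Neurons were compared with progenitors first. In mature glutamatergic-like against radial glia-like cells, 5 of 9 tested receptor genes were higher and none lower, where 16.5% of 8667 genes were higher (edgeR's quasi-likelihood test, adjusted p under 0.05). Gria1, Gria3, Gria4, Grin1 and Grik3 had 5 UMIs or fewer in radial glia-like cells and passed the low-count filter through other classes. They could come out higher or uncalled but hardly lower, so the absence of lower genes among them says little. Gria2 was 6.74-fold higher (interval of the UMI ratio 5.26 to 8.76, log2 difference 2.62 ± 0.39, SE, adjusted p = 0.000157). Grin2b was 7.92-fold higher (6.19 to 10.3, log2 2.89 ± 0.24, adjusted p = 2.85e-13). Gria1 passed on 93 against 2 UMIs (ratio 14.4, 3.89 to 121, adjusted p = 3.5e-05), Grin1 on 46 against 1 UMI (ratio 14.3, 2.44 to 576, adjusted p = 0.0136) and Gria4 on 56 against 5 UMIs (ratio 3.48, 1.40 to 11.1, adjusted p = 0.0248). Gria3 had an adjusted p of 0.0621, and 0.0274 with the aliquot as a block. Grik2 had a log2 difference of -1.04 ± 0.66, and Grik5 of 0.61 ± 0.44.

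Gria2 and Grin2b passed in every alternative in which they were tested. Gria1 was lost without the radial glia-like sum of the 951-cell aliquot (adjusted p = 0.118) and with coarser clusters, at a resolution of 0.5 in place of 0.8 (log2 0.86, adjusted p = 0.213), and did not pass with Nanopore counts (adjusted p = 0.0824). Grin1 was lost without the 951-cell sum of either class (adjusted p = 0.0849 and 0.179), and Gria4 without the radial glia-like one (adjusted p = 0.349) or the mature glutamatergic-like sum of the 190-cell aliquot (adjusted p = 0.108), all by edgeR's test. With the DESeq2 Wald test Grin1 (adjusted p = 0.207) and Gria4 (adjusted p = 0.291) did not pass. The coarser clusters did not hold the same cells under the same names. Their radial glia-like cluster had 151 cells in place of 66, and no cluster was named intermediate progenitor-like.

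In mature GABAergic-like against radial glia-like cells, 6 of 9 tested receptor genes were higher and none lower, where 30.4% of all genes passed, 14.3% higher and 16.1% lower. The radial glia-like sums are the same as in the comparison before, so the same limit holds for the genes with few UMIs there. Gria1 stood out with 223 against 2 UMIs (ratio 159, 43.4 to 1319, adjusted p = 1.38e-14 by edgeR's test). Gria4 was 13.1-fold higher (5.22 to 42.2, log2 3.70 ± 0.66, adjusted p = 2.27e-05) and Grin2b 5.03-fold higher (3.81 to 6.71, log2 2.22 ± 0.26, adjusted p = 2.27e-09). Grin1 passed on 16 against 1 UMI (adjusted p = 0.00548), Grik3 on 14 against 1 UMI (adjusted p = 0.0245) and Gria2 with a ratio of 3.30 (adjusted p = 0.0331). Without the mature GABAergic-like sum of the 951-cell aliquot, Grik3 turned to a log2 difference of -2.68, and Gria2 had a log2 difference of 0.38 and Grin1 an adjusted p of 0.06996. Without the radial glia-like sum of that aliquot, Gria2 (adjusted p = 0.281), Grin1 (adjusted p = 0.0981) and Grik3 (adjusted p = 0.499) were lost. Gria2 was also lost with DESeq2 size factors (adjusted p = 0.0759), clusters made from all genes (adjusted p = 0.0549), the unnamed cluster counted as immature glutamatergic-like (adjusted p = 0.0527) and coarser clusters (adjusted p = 0.792), and Grin1 and Grik3 with the DESeq2 Wald test (adjusted p = 0.103 and 0.345).

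Mature and immature neurons were compared next. Between mature and immature glutamatergic-like cells, 2 of 9 receptor genes were higher and none lower, where 2.48% of all genes were higher and 1.81% lower. Gria1, Gria4, Grin1, Grik2 and Grik3 had 7 UMIs or fewer in the immature class and could hardly come out lower. The absence of lower genes among them says little. Grin2b was 2.74-fold higher (2.36 to 3.19, log2 1.44 ± 0.22, adjusted p = 1.01e-05 by edgeR's test), and passed in every alternative that could test it. Gria1 was 7.49-fold higher on 93 against 4 UMIs (log2 2.86 ± 0.60, adjusted p = 0.00149).

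The Gria1 value came from 1 of 2 mature glutamatergic-like clusters, with 45.6 CPM in the cluster led by Crym and 8.17 in that led by Ndrg1. With coarser clusters it turned to a log2 difference of -0.81 (adjusted p = 0.380), and it was lost with the DESeq2 Wald test (adjusted p = 0.102), with Nanopore counts (adjusted p = 0.0529) and without the 951-cell sum of the mature (adjusted p = 0.0836) or the immature class (adjusted p = 0.0982). Gria2 was lower in mature cells by the levels above, with a log2 difference of -0.80 ± 0.32 that did not pass (adjusted p = 0.260). It passed without the filter on low counts (log2 -0.78, adjusted p = 0.0478 by edgeR's test). With the aliquot as a block it also did (log2 -0.77, adjusted p = 0.000674), and 11.3% of all genes then passed in place of 4.29%. Gria3 had a log2 difference of -1.48 ± 0.71 (adjusted p = 0.314). In the coarser clusters 73 cells led by Crym were named immature glutamatergic-like, so that alternative compared other groups of cells.

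The immature GABAergic-like cluster was led by Ebf1, Isl1 and Zfhx3 and the mature one by Maf, Nxph1, Npy and Sst. Ebf1 and Isl1 are transcription factors known from striatal projection neurons and Npy and Sst are neuropeptides of interneurons, so that type of neuron and maturity cannot be told apart between these classes. Of the receptor genes 3 of 9 were higher in mature than in immature GABAergic-like cells and none lower, where 1.15% of all genes were higher and 1.49% lower. Gria3, Gria4, Grin1 and Grik2 had 9 UMIs or fewer in the immature class, so that they could hardly come out lower here. Gria1 was 11.4-fold higher (7.66 to 17.5, log2 3.55 ± 0.37, adjusted p = 2.21e-09 by edgeR's test). Gria4 was 7.30-fold higher (3.53 to 17.0, log2 2.76 ± 0.61, adjusted p = 0.00365), and Grin2b 2.60-fold higher (2.09 to 3.25, log2 1.37 ± 0.24, adjusted p = 0.000158). Gria2 stood at 0.07 ± 0.37. Gria1 and Grin2b passed in every alternative that could test them, and Gria4 was lost with the DESeq2 Wald test and without the 951-cell sum of either class. With the aliquot as a block 5.73% of all genes passed in place of 2.64%, and the same 3 receptor genes did.

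The mature to immature difference was also compared between GABAergic-like and glutamatergic-like cells, a test chosen after the values were seen. For the reason just given it does not compare maturation alone. No receptor gene passed, where 2.23% of all genes did (0.785% towards mature GABAergic-like cells, 1.44% in the other). Of the receptor genes, 2 had an unadjusted p under 0.05, Gria3 (0.0292) and Grik3 (0.0234), as had 933 of 8667 genes. With coarser clusters Gria1 passed (log2 4.35, adjusted p = 6.43e-07 by edgeR's test).

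The mature classes differed in opposite directions for different subunits. Of 9 tested receptor genes 2 were higher in the mature GABAergic-like than in the mature glutamatergic-like class, against 3.31% of all genes, and 2 were lower, against 5.16%. Gria1 was 11-fold higher (8.60 to 14.2, log2 3.63 ± 0.32, adjusted p = 4.25e-12 by edgeR's test) and Gria4 3.77-fold higher (2.49 to 5.67, log2 1.76 ± 0.48, adjusted p = 0.0112). Gria2 was lower (log2 -1.36 ± 0.35, adjusted p = 0.0313), and so was Grin2b (log2 -0.67 ± 0.21, adjusted p = 0.0373). Grik3 (1.91 ± 0.87) and Grik2 (1.36 ± 0.67) had adjusted p of 0.210 and 0.270. With the aliquot as a block 14.2% of all genes passed in place of 8.47%.

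Gria1 passed in every alternative that could test it, including Nanopore counts. Gria2 was lost with DESeq2 size factors (adjusted p = 0.0697), with clusters made from all genes (adjusted p = 0.0650) and with Nanopore counts (adjusted p = 0.149). Grin2b was lost on leaving out any 1 of the 4 sums, without the filter on low counts (adjusted p = 0.0779), without the shared barcodes (adjusted p = 0.0511) and with the DESeq2 Wald test, and Gria4 with that test and on leaving out the mature glutamatergic-like sum of the 951-cell aliquot or either mature GABAergic-like sum.

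The genes that work with these receptors were taken from a list of 61, covering other subunits, auxiliary subunits, scaffolds, kinases, RNA editing enzymes, metabotropic receptors and vesicular transporters. On Nanopore 25 of 42 tested partners were lower and 0 higher, against 30.3% and 20.2% of all genes, with a median log2 difference of -1.32. Partners with few Nanopore UMIs could likewise hardly come out higher. The largest differences were those of Shisa7, an AMPA auxiliary subunit (-5.89 ± 0.80), Adar, an editing enzyme (-5.41 ± 0.47), and Neto2, a kainate auxiliary subunit (-4.95 ± 0.30), with adjusted p of 0.00238, 0.000574 and 0.000179 by edgeR's test. All 3 genes listed as editing enzymes and 13 of 19 scaffold genes were lower.

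Between classes 33 partners were tested. In mature glutamatergic-like against radial glia-like cells 14 were higher and 1 lower, against 16.5% of all genes in each direction. Partners with few UMIs in radial glia-like cells could likewise hardly come out lower, here and in the next comparison. Dlg2, a membrane scaffold, had 159 against 0 UMIs (16.5-fold higher in CPM than a floor of 3 UMIs). Grm5, a metabotropic receptor, had 74 against 0 (7.66-fold on the same floor). Camk2b, a calcium-dependent kinase subunit that also served as a marker of the mature class, was 37.5-fold higher, and Camk2d, a related subunit, was the one that was lower (5 against 89 UMIs). In mature GABAergic-like against radial glia-like cells 16 were higher and 3 lower, against 14.3% and 16.1% of all genes. Cacng3, an AMPA auxiliary subunit, had 50 against 0 UMIs (23.7-fold on that floor) and Grm5 had 46 against 0 (21.8-fold). Neto1, a kainate auxiliary subunit, had 27 against 0 (12.8-fold). Camk2d (2 against 89 UMIs), Cnih3 (2 against 23) and Homer2 (11 against 40) were the ones that were lower. Homer2 was lost on leaving out any 1 of the 4 sums and Cnih3 without the 951-cell sum of either class, and Neto1 without the radial glia-like one.

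In mature against immature glutamatergic-like cells 4 partners were higher and 2 lower, against 2.48% and 1.81% of all genes. Camk2b was 7.49-fold, the AMPA auxiliary subunit Cnih3 6.44-fold and the scaffold Dlgap1 5.38-fold higher, and Camk2d and the vesicular transporter Slc17a6 were lower. Camk2d and Slc17a6 were lost without the 951-cell mature or the 190-cell immature sum, and Slc17a6 and Cnih3 without the 951-cell immature sum. In mature against immature GABAergic-like cells 4 were higher and none lower, against 1.15% and 1.49% of all genes, led by Cacng3 (50 against 3 UMIs, ratio 23.8, 7.69 to 119) and by the scaffolds Dlgap2 (43 against 3, ratio 20.5, 6.56 to 103) and Dlgap1 (15.4-fold). Cacng3 and Dlgap2 were lost without the 951-cell sum of either class. Partners with as few UMIs in the immature class as these could hardly come out lower.

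Against mature glutamatergic-like cells, 7 partners were higher and 3 lower in mature GABAergic-like cells, against 3.31% and 5.16% of all genes. Cacng3 (50 against 2 UMIs, ratio 115, 30.1 to 973) and Neto1 (27 against 2, ratio 61.9, 15.6 to 537) were higher. Adarb2, listed with the editing enzymes, had 11 against 0 (16.8-fold higher in CPM than a floor of 3 UMIs). Those lower were Camk2b (19 against 604 UMIs), Dlg2 (4 against 159) and Cnih3 (2 against 100). The auxiliary subunits thus went both ways, with Cacng2, Cacng3 and Neto1 higher and Cnih3 lower. Adarb2 was at a log2 difference of 0.00 without the mature GABAergic-like sum of the 951-cell aliquot, which held all of its UMIs in these classes. Without that sum Cnih3 and Dlg2 were also lost, and without the mature glutamatergic-like sum of the same aliquot Neto1 and Adarb2 were. Cnih3 changed sign between mature and immature glutamatergic-like cells with coarser clusters (-0.58).

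The genes whose levels followed a receptor gene most closely were named by Pearson r of log2(CPM + 10) over 14 class and aliquot sums, among 5915 genes with a mean of at least 20 CPM. They were Amph (0.944), Maf (0.927) and Npy (0.919) for Gria1. For Gria2 they were Frmd4a (0.934), Dlg4 (0.922) and Eif4a2 (0.909). For Grin2b they were Svbp (0.962), Thra (0.958) and Tanc2 (0.947), and for Grik5 Tmem184c (0.946), Tmeff1 (0.914) and Amer2 (0.870). The sums share libraries and depth, and Maf and Npy were markers by which the mature GABAergic-like class was named.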

How the data were processed

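Brain cells of 1 E18 C57BL/6 mouse were captured on the 10x Chromium system (v2 chemistry) in 1 emulsion, split into aliquots of 190 and 951 cells and sequenced on Illumina and Nanopore, which gave 4 libraries. The deposited Illumina values are raw counts of UMIs for each gene in each cell, made by the authors with Cell Ranger 2.0 (per the submitters' processing notes) on mm10, the GRCm38 assembly. The deposited Nanopore values are UMI counts per annotated isoform and cell barcode. For these the authors aligned reads to the same build, assigned barcodes and UMIs with the Illumina data as guide, built a consensus per UMI and kept UMIs whose exons matched 1 GENCODE isoform. Replicates were not pooled for the tests, while class levels, UMI ratios and shares given as 1 value are sums over both aliquots.

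Cells with at least 1400 Illumina genes (5% of 27998) were kept. The receptor genes, partner genes and marker lists were chosen with earlier results of these data known. All 29 receptor isoforms matched the GENCODE vM21 annotation. Clusters were computed with Seurat 5.3.0 (2000 variable genes, 11 dimensions, resolution 0.8) without receptor and partner genes. A cluster took a class name from marker lists. The limits used for that, and the rule that 3 markers put a cell among other cell types, were set after the data were seen. Of the kept cells 3 and 4 per aliquot were called doublets by Scrublet and left in, and an alternative removed them.

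UMIs were summed per library or per class and aliquot and tested with edgeR 4.0.16 (R 4.3.3, TMM, low-count filter, quasi-likelihood test, Benjamini-Hochberg over all genes tested). A single fit held the 7 classes that had 5 or more cells in both aliquots. The low-count filter looked at all their sums together, so a gene could be kept through classes in which it was high. Isoform usage was tested with edgeR's diffSpliceDGE, and DESeq2 1.42.0 was an alternative test. The tests were checked on simulated data with known changes. These changes were planted only in genes with many UMIs and with 1 fixed spread, so the check does not cover the rarer receptor genes. The aliquot pairs the samples by its label. Deviations of same-aliquot sums correlated at 0.68 between platforms and at 0.144 to 0.342 (median 0.197) between classes. A block for the aliquot was an alternative. Other alternatives were DESeq2 size factors, no filter, Nanopore counts, clusters from all genes, a resolution of 0.5, no doublets, leaving out each sum and, added after the data were seen, leaving out shared barcodes and counting the unnamed cluster as immature glutamatergic.

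All 10 receptor genes were named, every isoform with at least 10 UMIs or 5% of its gene, the 3 called partners with the largest difference in each direction per comparison, and for receptor genes averaging 20 or more CPM (UMIs per 1000000) the 3 genes with the most similar levels. The 3 most different partners between platforms were named by the same rule. Intervals are 95% exact binomial or Poisson intervals, a count of 0 was read against a floor of 3 counts, and both cover counting error only. Ratios to that floor leave out the counting error of the other count.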

Additional observations from a re-analysis of the deposited data

Results flagged for a closer look

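Receptor UMIs were present in cells that entered no comparison. The unnamed cluster of 88 cells held 676 Gria2, 158 Grin2b, 26 Grik5, 14 Grin1, 5 Gria1, 5 Gria3 and 4 Gria4 UMIs, and the 16 Cajal-Retzius-like cells held 25 Gria2, 16 Grin2b, 8 Grin1 and 4 Gria1 UMIs. These counts are above the 3 UMIs that a count of 0 allows. Gria2 in the unnamed cluster stood at 849 CPM (UMIs per 1000000 UMIs), next to 776 in immature glutamatergic-like cells, and Grin1 in Cajal-Retzius-like cells at 51.1 CPM on 4 UMIs in each aliquot. The 6 cells with oligodendrocyte precursor markers held 14 Gria2 UMIs among 60975, with 3 UMIs each of Grin2b and Grik1 and 2 each of Gria3 and Grik5.

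Camk2b, a calcium-dependent kinase subunit on the partner list and also a marker used to name the mature glutamatergic-like class, had a mature to immature difference that differed between GABAergic-like and glutamatergic-like cells. The GABAergic-like minus glutamatergic-like value of that difference was -2.37 on the log2 scale (edgeR's quasi-likelihood test of the difference, adjusted p = 0.0188). Among glutamatergic-like cells alone Camk2b was 7.49-fold higher in mature cells. The immature and mature GABAergic-like clusters were led by genes of different neuron types, so type and maturity cannot be told apart.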

How the results depend on the processing

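Of 348 values of called receptor genes over the alternatives tested, 300 kept their direction and passed, 46 kept their direction without passing and 2 changed sign. Of 301 values of receptor genes that were not called, 3 passed and 14 changed sign.

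The number of called receptor genes moved as follows. Losses small beside the main count are left out here. With the DESeq2 Wald test these were Gria3 and Grik2 between platforms, and Grin1 and Grik3 in mature GABAergic-like against radial glia-like cells. Gria4 was another, in mature against immature GABAergic-like cells. Mature glutamatergic-like against radial glia-like cells gave 3 with the DESeq2 Wald test, 1 with Nanopore counts, which could test Gria1 and Gria2 alone, and 2 to 5 when 1 sum was left out. Mature GABAergic-like against radial glia-like cells gave 2 with Nanopore counts and 3 to 6 when a sum was left out. Mature against immature glutamatergic-like cells gave 1 with the DESeq2 Wald test, 0 with Nanopore counts, 1 at a resolution of 0.5 and 1 to 2 when a sum was left out. Mature against immature GABAergic-like cells gave 1 with Nanopore counts and 2 to 3 when a sum was left out. Mature GABAergic-like against mature glutamatergic-like cells gave 2 with the DESeq2 Wald test, 1 with Nanopore counts and 2 to 3 when a sum was left out. Between platforms 6 to 9 genes passed when a library was left out. The mature to immature difference compared between lineages gave 1 at a resolution of 0.5. The median capture of genes of 8 kb or more was 13.2% as the mean of both aliquots, and 9.94% when the median in place of the longest coding transcript set the length. The cause of these shifts was not tested, apart from the fewer genes and sums that some alternatives hold. The share of all genes called also moved. In the 5 class comparisons it was 38.3%, 34.9%, 5.71%, 2.94% and 10.2% of 5110 genes with Nanopore counts. The main fit gave 33%, 30.4%, 4.29%, 2.64% and 8.47% of 8667. A resolution of 0.5 gave 3.33% for mature against immature glutamatergic-like cells and 1.9% for the difference between lineages. The share was below that of the main fit whenever a sum or library was left out. At a resolution of 0.5 the classes of the same name also held other cells, as given with the comparisons.

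Changes of sign were as follows, as log2 differences. Against radial glia-like cells, leaving out 1 sum gave -0.26 to 4.61 for Grik3 in mature glutamatergic-like cells (lowest without radial glia replicate 2) and -2.68 to 6.53 for Grik3 in mature GABAergic-like cells (lowest without mature GABAergic replicate 2), and Grik2 in the latter was -0.011 with the DESeq2 Wald test. Mature against immature glutamatergic-like cells at a resolution of 0.5 gave -0.81 for Gria1, 0.41 for Grik5 and -0.58 for Cnih3. Mature against immature GABAergic-like cells gave -0.83 to 0.40 for Gria2 and -0.58 to 0.68 for Grik5 when a sum was left out, both farthest from the reported value without mature GABAergic replicate 2. For mature GABAergic-like against mature glutamatergic-like cells the ranges were -0.82 to 1.05 for Gria3, -4.53 to 2.30 for Grik3 and -0.48 to 0.69 for Grik5, each of which changed sign without mature GABAergic replicate 2, and the DESeq2 Wald test gave 0.25 for Gria3 and 0.033 for Grik5. Replicate 1 is the 190-cell and replicate 2 the 951-cell aliquot.

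With the aliquot as a block for pairing, 9 receptor genes passed between platforms and 6, 6, 3, 3 and 4 in the class comparisons in the order above, and 0 in the difference between lineages and in the isoform tests. The block changed the call of Gria3 and Gria2 as given with their comparisons and of no other receptor gene. Over all genes, the DESeq2 Wald test called 3043 of 12561 between platforms in place of 4976 of 9855. Between classes it called 1305, 1219, 85, 79 and 258 of 27933 in place of 2857, 2631, 372, 229 and 734 of 8667. The gene sets of the DESeq2 test were not cut by the low-count filter, so these shares are not on equal terms. The block called 6972 between platforms and 3733, 3245, 977, 497 and 1233 between classes. Isoform usage at a resolution of 0.5 could test no receptor gene.

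Depth sets the limits here. Grik1, Grik2, Grik3, Gria3 and Grin1 rest on 18 to 99 Illumina UMIs in all cells, and isoform statements on 561 Nanopore UMIs, of which 396 were Gria2. Each class comparison rests on 2 aliquots of 1 animal, and a lone sum left by an omission was assumed to vary like the others.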
